A study of Homo sapiens with 4 samples.

Results

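The 104 promoters described here are the rows whose gene symbol names a receptor for GABA, glycine, glutamate, acetylcholine, serotonin, dopamine or the adrenergic transmitters, out of 20242 promoters measured. The rule uses the gene symbol only, and it was chosen with earlier results of these data known. It does not cover the GABA-B receptor genes GABBR1 and GABBR2, which are among the genes of transmitter handling below. Of these rows 101 are receptor genes, namely 18 subunits of the GABA-A receptor, 5 of the glycine receptor, 18 of the ionotropic glutamate receptors, 8 metabotropic glutamate receptors, 16 nicotinic subunits, 5 muscarinic receptors, 17 serotonin, 5 dopamine and 9 adrenergic receptors. The other 3 rows share a symbol stem only: GRIK1-AS2 and HTR5A-AS1 are antisense transcripts and GRID2IP encodes a partner protein of a glutamate receptor.

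Receptors for fast transmission are channels built from several subunits, so that a neuron acquires one by transcribing a set of genes, many of which lie in clusters. Metabotropic, muscarinic, dopamine, adrenergic and most serotonin receptors act instead through G proteins and are each encoded by a single gene. In embryonic stem cells many genes of later lineages have promoters with both trimethylated lysine 27 of histone H3 (H3K27me3), laid down by Polycomb repressive complex 2, and trimethylated lysine 4 (H3K4me3), found at CpG-rich active or poised starts. Such promoters are called bivalent.

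The cells were JMJD3c-hESCs, human embryonic stem cells of the line SEES-3 that carry a doxycycline (Dox)-responsive transgene for JMJD3c, the catalytic JmjC part of the H3K27 demethylase JMJD3 with a nuclear localization signal. All groups carried this transgene and the reverse Tet-transactivator and grew without feeder cells in StemFit AK-03 medium. Untreated cells (−Dox) and cells in medium with 1 µg/ml Dox (+Dox), harvested at day 3, were each immunoprecipitated for H3K27me3 and for H3K4me3 and sequenced (ChIP-seq), which gave 4 groups with 1 library in each. No Dox-treated cells without the transgene, or with its catalytic mutant, were analysed here, so an effect of Dox and one of JMJD3c cannot be told apart. Without replicates no p-value is given, and every comparison below is between 2 libraries.

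Each value is a signal, the read coverage summed over 3 kb on either side of a deposited transcription start and scaled by the authors to library size. Estimated from the step between values, the libraries held about 2629351 reads (H3K27me3 −Dox), 2682085 (H3K27me3 +Dox), 3509244 (H3K4me3 −Dox) and 2682085 (H3K4me3 +Dox). The estimates of both +Dox libraries are identical, because their values had the same step of 0.3728. Whether this step reflects the own depth of each of these libraries was not tested. The read numbers, the error intervals and the scale of the +Dox to −Dox ratios depend on it. A promoter above 20 for a mark was taken as marked, the threshold in the study's methods, and 20 corresponded to about 15.7, 16, 21 and 16 reads in the same order. Promoters were classed on their −Dox values as bivalent, H3K27me3-only, H3K4me3-only or unmarked. The interval given after a ratio of +Dox to −Dox is a 95% Clopper-Pearson interval on approximate reads. It covers counting error only, because the reads have no molecular identifiers and no library was repeated. All 12 pluripotency markers examined were H3K4me3-only, with a median H3K4me3 of 148 in −Dox and 135 in +Dox. Of 10 neuron markers 4 were bivalent, and 5 blood markers were all unmarked.

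Sequences around the start are printed for promoters at the extremes of the results: the 3 bivalent promoters with the lowest and the 3 with the highest ratio of +Dox to −Dox H3K27me3 among those at 50 or above in −Dox, 2 with the highest H3K4me3 and no H3K27me3, and 2 with the least of both marks. Only promoters with a RefSeq start within 1 kb of the deposited one qualified. GABRB2 was added after its values were seen, and its RefSeq start lies 1187 bp away. Each is 300 bases of GRCh37 read 5′ to 3′ in the direction of the gene, 270 before the deposited start and 30 from it, with CpG dinucleotides in capitals. The lowest ratios were those of GABRB2 (chr5:160974889-160975188, minus strand), GRIK2 (chr6:101846394-101846693, plus strand), GRIN2D (chr19:48896655-48896954, plus strand) and GRIN2A (chr16:10276582-10276881, minus strand).
GABRB2: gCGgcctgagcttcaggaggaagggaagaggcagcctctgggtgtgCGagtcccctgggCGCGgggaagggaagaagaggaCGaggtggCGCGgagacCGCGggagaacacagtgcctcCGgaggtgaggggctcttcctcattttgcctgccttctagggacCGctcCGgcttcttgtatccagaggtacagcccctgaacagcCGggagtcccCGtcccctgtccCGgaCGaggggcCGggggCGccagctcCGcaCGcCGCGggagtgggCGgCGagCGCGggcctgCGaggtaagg
GRIK2: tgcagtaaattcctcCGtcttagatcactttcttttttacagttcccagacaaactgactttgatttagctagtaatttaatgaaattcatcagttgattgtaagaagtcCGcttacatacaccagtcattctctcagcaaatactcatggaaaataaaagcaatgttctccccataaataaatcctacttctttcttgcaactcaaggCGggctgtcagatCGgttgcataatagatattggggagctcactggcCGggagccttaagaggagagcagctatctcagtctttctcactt
GRIN2D: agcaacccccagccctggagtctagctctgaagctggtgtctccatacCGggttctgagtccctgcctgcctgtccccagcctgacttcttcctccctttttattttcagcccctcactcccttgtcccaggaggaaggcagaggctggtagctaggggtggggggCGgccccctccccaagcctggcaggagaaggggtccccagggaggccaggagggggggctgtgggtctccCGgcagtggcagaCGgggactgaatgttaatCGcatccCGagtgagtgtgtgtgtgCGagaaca
GRIN2A: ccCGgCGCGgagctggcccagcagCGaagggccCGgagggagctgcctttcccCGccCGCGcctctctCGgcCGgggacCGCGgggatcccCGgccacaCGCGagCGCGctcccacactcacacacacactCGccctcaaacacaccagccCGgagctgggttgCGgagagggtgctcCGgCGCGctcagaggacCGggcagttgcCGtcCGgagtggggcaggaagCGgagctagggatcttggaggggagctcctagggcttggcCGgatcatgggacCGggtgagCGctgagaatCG
The highest were those of GRIK3 (chr1:37500087-37500386, minus strand), ADRB1 (chr10:115803355-115803654, plus strand) and GRM7 (chr3:6902532-6902831, plus strand).
GRIK3: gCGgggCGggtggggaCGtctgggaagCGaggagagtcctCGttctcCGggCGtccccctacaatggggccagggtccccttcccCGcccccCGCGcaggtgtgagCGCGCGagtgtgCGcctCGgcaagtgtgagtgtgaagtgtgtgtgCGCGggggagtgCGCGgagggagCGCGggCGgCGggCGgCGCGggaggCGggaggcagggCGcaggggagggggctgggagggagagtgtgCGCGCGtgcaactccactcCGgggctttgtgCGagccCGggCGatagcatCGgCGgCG
ADRB1: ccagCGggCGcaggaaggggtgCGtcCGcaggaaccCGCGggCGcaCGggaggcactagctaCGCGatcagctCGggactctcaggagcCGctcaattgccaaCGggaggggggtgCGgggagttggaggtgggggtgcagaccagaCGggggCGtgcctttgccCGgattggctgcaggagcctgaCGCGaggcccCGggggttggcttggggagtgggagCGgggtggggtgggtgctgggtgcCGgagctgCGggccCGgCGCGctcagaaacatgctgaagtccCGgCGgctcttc
GRM7: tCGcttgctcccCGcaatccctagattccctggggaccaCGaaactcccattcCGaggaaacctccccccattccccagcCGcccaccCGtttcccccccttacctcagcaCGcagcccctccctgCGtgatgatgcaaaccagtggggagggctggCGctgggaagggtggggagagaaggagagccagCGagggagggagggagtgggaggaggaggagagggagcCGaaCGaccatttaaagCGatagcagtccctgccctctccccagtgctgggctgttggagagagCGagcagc
H3K4me3 without H3K27me3 was found at GRIK5 (chr19:42574329-42574628, minus strand) and GRIA4 (chr11:105480530-105480829, plus strand), and neither mark at CHRNA10 (chr11:3692585-3692884, minus strand) and CHRM5 (chr15:34260428-34260727, plus strand).
GRIK5: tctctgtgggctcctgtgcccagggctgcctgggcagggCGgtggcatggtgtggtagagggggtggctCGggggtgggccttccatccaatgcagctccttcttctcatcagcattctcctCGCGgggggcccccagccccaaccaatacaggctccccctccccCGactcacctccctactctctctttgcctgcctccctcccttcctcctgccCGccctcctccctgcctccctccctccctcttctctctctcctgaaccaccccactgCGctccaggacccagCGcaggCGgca
GRIA4: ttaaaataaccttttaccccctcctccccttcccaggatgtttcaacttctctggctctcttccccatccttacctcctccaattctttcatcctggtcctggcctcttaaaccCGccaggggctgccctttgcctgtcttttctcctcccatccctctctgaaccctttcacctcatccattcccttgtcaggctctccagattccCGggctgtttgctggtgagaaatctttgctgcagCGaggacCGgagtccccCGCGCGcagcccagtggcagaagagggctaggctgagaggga
CHRNA10: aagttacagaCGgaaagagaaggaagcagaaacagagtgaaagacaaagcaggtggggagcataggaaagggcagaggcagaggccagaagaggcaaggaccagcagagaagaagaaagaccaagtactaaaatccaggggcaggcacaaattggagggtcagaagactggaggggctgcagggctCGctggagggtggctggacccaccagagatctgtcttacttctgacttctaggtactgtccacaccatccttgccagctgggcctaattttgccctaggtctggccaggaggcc
CHRM5: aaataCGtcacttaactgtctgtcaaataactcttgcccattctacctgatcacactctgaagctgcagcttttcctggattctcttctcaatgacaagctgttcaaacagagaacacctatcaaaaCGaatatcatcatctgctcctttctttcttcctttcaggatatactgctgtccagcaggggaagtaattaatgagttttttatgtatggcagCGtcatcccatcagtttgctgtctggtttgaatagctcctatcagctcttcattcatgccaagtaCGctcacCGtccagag
CpG dinucleotides numbered 27 in GABRB2, 5 in GRIK2, 7 in GRIN2D, 31 in GRIN2A, 38 in GRIK3, 28 in ADRB1, 14 in GRM7, 9 in GRIK5, 7 in GRIA4, 2 in CHRNA10 and 5 in CHRM5. The CpG numbers of the promoters with low and with high H3K27me3 ratios overlapped.

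Before induction, the receptor genes had a larger share of bivalent promoters and a smaller share with H3K4me3 alone than promoters at large. The bivalent class held 33 of the 104 promoters (31.7%, Wilson interval 23.6 to 41.2%), against 9.42% of all promoters, and the H3K27me3-only class another 4, against 1.58%. Together 37 members were above 20 for H3K27me3 (background 11.0%) and 52 for H3K4me3 (background 63.7%). In contrast, 19 (18.3%) were H3K4me3-only, against 54.2%, and 48 (46.2%) were unmarked, against 34.8%. Of the 48 unmarked rows 45 are receptor genes. The 135 genes with a symbol of voltage-gated or potassium channel genes included a like share of bivalent promoters (47, or 34.8%, interval 27.3 to 43.2%). They were chosen by symbol alone. CACNG2, CACNG3 and CACNG4 are among them and also among the genes of transmitter handling below, so these 2 lists overlap. No test of these shares was made.

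**Figure D1:**
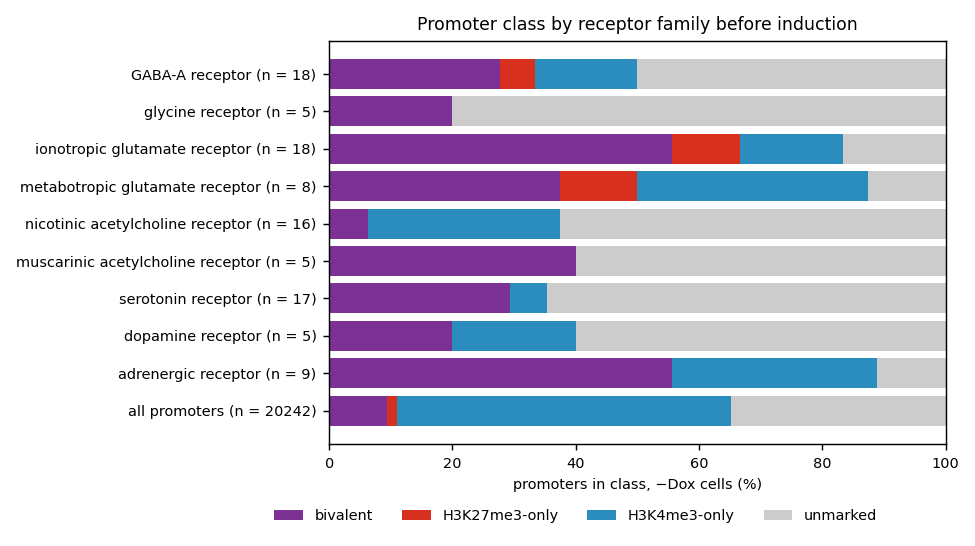
Share of promoters in each class (horizontal axis, percent) in −Dox cells for each receptor family and for all promoters (number of genes in brackets). The ionotropic glutamate and adrenergic rows have the longest bivalent bars, with 10 of 18 and 5 of 9 genes, and the nicotinic row has 1 bivalent gene of 16.

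Among ionotropic glutamate receptors 10 of 18 promoters were bivalent and among adrenergic receptors 5 of 9, whereas nicotinic receptors had 1 of 16. In between were the muscarinic (2 of 5), metabotropic glutamate (3 of 8), serotonin (5 of 17), GABA-A (5 of 18), glycine (1 of 5) and dopamine receptors (1 of 5). Over all families 16 of 39 G protein-coupled receptors and 17 of 62 ligand-gated channels were bivalent. With so few genes per family the Wilson intervals were wide (33.7 to 75.4% for ionotropic glutamate and 1.11 to 28.3% for nicotinic receptors).

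**Figure D2:**
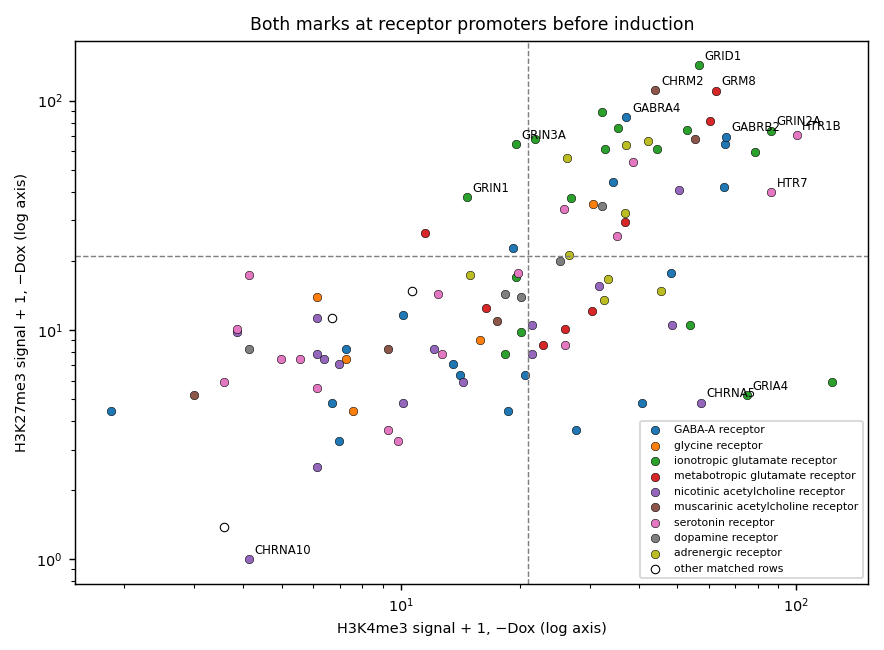
H3K4me3 signal (horizontal) against H3K27me3 signal (vertical) in −Dox cells for the 104 promoters, each plus 1 on log axes, coloured by family, with dashed lines at the threshold of 20. Bivalent promoters fill the upper right field, GRID1 lies highest at 141, and nicotinic genes lie mostly in the lower fields.

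After induction H3K27me3 was lower at most of the bivalent receptor promoters, while H3K4me3 stayed near its level. The median H3K27me3 of the 33 promoters was 60.5 in −Dox and 21.3 in +Dox, and the median H3K4me3 was 37.6 and 35.0. The median log2 ratio was −0.91 for H3K27me3 (interval over promoters −1.37 to −0.50) and −0.19 for H3K4me3 (−0.30 to 0.03), against −0.81 and −0.18 over all bivalent promoters. H3K27me3 was below 0.5 of its −Dox value at 16 of 33 (48.5%, Wilson interval 32.5 to 64.8%), against a background of 40.8%, and below 0.66 at 22 (66.7%), against 61.4%. The ratio itself was below 1 at 28 promoters (background 87.6%). Its counting interval lay below 1 at 18 promoters, against 48.5% of all bivalent promoters, and above 1 at none, against 2.15%. With the libraries of a mark scaled to the same total over promoters, 12 intervals lay below 1 and 2 above it, those of GRID1 and GRIN2C. The intervals of ADRA1D, DRD1, GLRB, GRM8, HTR6 and HTR7 then no longer lay below 1. This scaling takes the summed signal of a mark as equal in both conditions. The paper, however, reports by immunoblotting that total H3K27me3 fell by day 3 of Dox. A ratio above 1 under this scaling is relative to the library and does not show a gain of the mark. The shares of members were near the background. The counts of bivalent members, here and by family, include both GABRB2 and GABRA6, whose windows largely share their reads. The class was set on the −Dox value, so a lower +Dox value and a chance excess in the −Dox library cannot be told apart from these values alone. With the class set on the +Dox values instead, 17 promoters were bivalent, 3 of them were below 0.5 (17.6%, against 17.8% of all), and the median log2 ratio was −0.10, against −0.47.

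**Figure D3:**
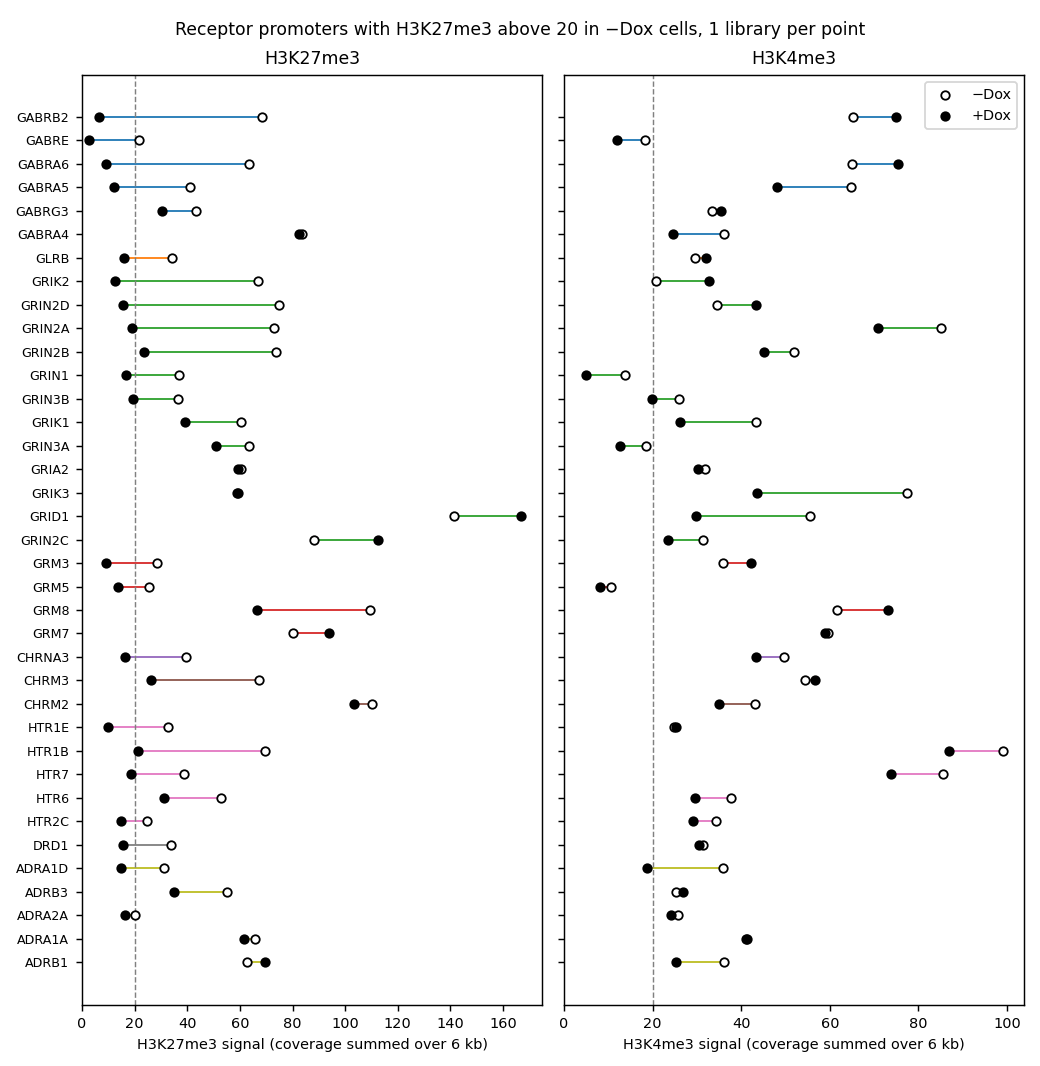
H3K27me3 (left) and H3K4me3 (right) signal in −Dox and +Dox cells for the 37 receptor promoters above 20 for H3K27me3 in −Dox, 1 row per gene with the line coloured by family and a dashed line at 20. The left panel has long lines towards low values for GABRB2, GABRA6, GRIK2 and GRIN2D and short ones for GABRA4, GRIK3, GRIA2 and CHRM2. In the right panel the lines are short for most genes.

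By class, 17 of the 33 were still above 20 for H3K27me3 in +Dox cells, against 58.3% of all bivalent promoters. All 17 were also above 20 for H3K4me3 (51.5%, background 51.0%), 14 had H3K4me3 alone (42.4%, 39.1%), and 2, ADRA1D and GRIN3B, had neither (background 2.67%). None had H3K27me3 alone (7.24%). Among the 12 promoters with a −Dox H3K27me3 of 20 to 50, 8 were below 0.5 (66.7%, background 50.6%), and among the 21 at 50 or above also 8 (38.1%, 28.1%). Of the 47 bivalent channel promoters 14 were below 0.5 (29.8%, 18.7 to 44%), with a median log2 ratio of −0.67.

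The GABA-A receptor is the chloride channel behind most fast inhibition in the brain. GABRB2, a beta subunit, had the lowest H3K27me3 ratio of all bivalent members, with 68.5 in −Dox and 6.34 in +Dox (ratio 0.0926, 0.0283 to 0.225). Over the same window H3K4me3 was 65.3 in −Dox and 74.9 in +Dox. The promoter thus had as much H3K4me3 after induction as before, with H3K27me3 near the genome's median of 5.97. GABRA6, an alpha subunit of cerebellar granule cells, gave nearly the same values, 63.5 in −Dox and 8.95 in +Dox for H3K27me3 (ratio 0.141, 0.0525 to 0.304) and 65 in −Dox and 75.3 in +Dox for H3K4me3. The start used for it is 138658 bp away from its canonical one and 849 bp away from that of GABRB2, so the 2 windows largely share their reads and were 1 region, not the GABRA6 promoter.

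In the cluster on chromosome 15 the alpha subunit gene GABRA5 had H3K27me3 of 41.1 in −Dox and 12.3 in +Dox (ratio 0.2995, 0.134 to 0.639), and its H3K4me3 was 64.7 in −Dox and 48.1 in +Dox. GABRG3, a gamma subunit, was 43.4 in −Dox and 30.6 in +Dox for H3K27me3 (ratio 0.705, 0.412 to 1.24) and 33.3 in −Dox and 35.4 in +Dox for H3K4me3, measured at a start 355627 bp from the canonical one. The cluster on chromosome 4 held 1 bivalent promoter, that of the alpha subunit GABRA4, with 83.7 in −Dox and 82.4 in +Dox for H3K27me3 (ratio 0.985, 0.686 to 1.4) and 36.2 in −Dox and 24.6 in +Dox for H3K4me3. GABRB1, whose start is 37986 bp from that of GABRA4, was H3K4me3-only with H3K4me3 of 47.3 in −Dox and 45.9 in +Dox, so neighbouring subunit genes were in different classes. On the X chromosome GABRE, the epsilon subunit, was H3K27me3-only, with 21.7 in −Dox and 2.61 in +Dox (ratio 0.12, 0.0129 to 0.486) for H3K27me3 and 18.2 in −Dox and 11.9 in +Dox for H3K4me3. Within the family the ratio thus ran from 0.0926 at GABRB2 to 0.985 at GABRA4, and their counting intervals did not overlap. The values are scaled to library reads. A ratio near 1, here or at other genes, therefore does not show that the amount of H3K27me3 was kept.

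The glycine receptor, an inhibitory channel of spinal cord and brainstem, had 1 bivalent promoter, that of the beta subunit GLRB. Its H3K27me3 was 34.2 in −Dox and 16 in +Dox (ratio 0.468, 0.224 to 0.947), and H3K4me3 was 29.6 in −Dox and 32.1 in +Dox. The 4 alpha subunit genes were unmarked.

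NMDA receptors, the calcium-permeable glutamate receptors of synaptic plasticity, were the only subfamily with H3K27me3 above 20 at every promoter (7 of 7, of which 5 were bivalent). The 4 GRIN2 genes encode the alternative glutamate-binding subunits. H3K27me3 was 73 in −Dox and 19 in +Dox at GRIN2A (ratio 0.26, 0.136 to 0.462), 73.8 in −Dox and 23.5 in +Dox at GRIN2B (ratio 0.318, 0.181 to 0.547) and 74.9 in −Dox and 15.7 in +Dox at GRIN2D (ratio 0.209, 0.109 to 0.398). GRIN2C stood apart, with 88.2 in −Dox and 113 in +Dox (ratio 1.28, 0.924 to 1.78), and its interval overlapped none of the other 3. The H3K4me3 values of GRIN2A were 85.2 in −Dox and 70.8 in +Dox. Those of GRIN2B were 51.9 in −Dox and 45.1 in +Dox, those of GRIN2C 31.3 in −Dox and 23.5 in +Dox and those of GRIN2D 34.5 in −Dox and 43.2 in +Dox. All 4 counting intervals of the H3K4me3 ratio included 1. These subunit genes had −Dox H3K27me3 between 73.0 and 88.2, so their different ratios were read from similar depths.

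GRIN1, the subunit common to all NMDA receptors, was H3K27me3-only, with H3K27me3 of 36.9 in −Dox and 16.8 in +Dox (ratio 0.455, 0.21 to 0.872) and H3K4me3 of 13.7 in −Dox and 4.85 in +Dox. The transcript used for GRIN1 was not in the annotation, so the position of its start could not be checked. The same holds for GRM5 and HTR7 below. GRIN3A, a glycine-binding subunit, was the only member still H3K27me3-only after induction, with 63.5 in −Dox and 51.1 in +Dox (ratio 0.804, 0.519 to 1.24) and H3K4me3 of 18.5 in −Dox and 12.7 in +Dox. Its relative GRIN3B was bivalent and then just below the threshold for both marks, with 36.5 in −Dox and 19.4 in +Dox for H3K27me3 (ratio 0.531, 0.274 to 1.03) and 25.9 in −Dox and 19.8 in +Dox for H3K4me3.

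Kainate receptors, which modulate transmitter release, had 3 bivalent promoters of 5. GRIK2, at a start 5080 bp from the canonical one, had H3K27me3 of 66.9 in −Dox and 12.7 in +Dox (ratio 0.189, 0.0839 to 0.367) with H3K4me3 of 20.8 in −Dox and 32.8 in +Dox (ratio 1.58, 0.843 to 2.86). GRIK1 had 60.5 in −Dox and 39.1 in +Dox for H3K27me3 (ratio 0.647, 0.39 to 1.02) and 43.3 in −Dox and 26.1 in +Dox for H3K4me3. At GRIK3 H3K27me3 was 58.9 in −Dox and 59.3 in +Dox (ratio 1.01, 0.668 to 1.57), and H3K4me3 was 77.5 in −Dox and 43.6 in +Dox (ratio 0.563, 0.369 to 0.85). The interval thus lay below 1 for H3K27me3 alone at GRIK2 and for H3K4me3 alone at GRIK3. GRIK4 was unmarked in −Dox, and its H3K4me3 was 17.4 in −Dox and 36.5 in +Dox (ratio 2.1, 1.13 to 4.03).

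GRIA2, the AMPA receptor subunit that sets calcium permeability, was the only bivalent AMPA promoter, with H3K27me3 of 60.5 in −Dox and 59.3 in +Dox (ratio 0.98, 0.643 to 1.49) and H3K4me3 of 31.9 in −Dox and 30.2 in +Dox. GRID1, a delta receptor that organizes synapses, had the highest H3K27me3 of any member, 141 in −Dox and 167 in +Dox (ratio 1.18, 0.913 to 1.54), and its H3K4me3 was 55.6 in −Dox and 29.8 in +Dox (ratio 0.537, 0.322 to 0.885). The interval at GRID1 thus lay below 1 for H3K4me3 alone.

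Among metabotropic glutamate receptors the bivalent promoters were those of GRM3, GRM7 and GRM8. GRM3, a presynaptic and glial receptor, had H3K27me3 of 28.5 in −Dox and 8.95 in +Dox (ratio 0.314, 0.113 to 0.756) and H3K4me3 of 35.9 in −Dox and 42.1 in +Dox. GRM8 had 109.5 in −Dox and 66.4 in +Dox (ratio 0.606, 0.421 to 0.861) for H3K27me3, still above the threshold, and 61.6 in −Dox and 73.1 in +Dox for H3K4me3. GRM7, of the same presynaptic group, had 80.2 in −Dox and 94 in +Dox (ratio 1.17, 0.824 to 1.66) for H3K27me3 and 59.6 in −Dox and 58.9 in +Dox for H3K4me3. GRM7 and GRM8 thus had similar H3K4me3 and ratios of H3K27me3 on opposite sides of 1, with intervals that barely overlapped. GRM5, a postsynaptic receptor coupled to calcium release, was H3K27me3-only, with 25.5 in −Dox and 13.8 in +Dox (ratio 0.541, 0.233 to 1.18) and H3K4me3 of 10.5 in −Dox and 8.2 in +Dox.

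Of the acetylcholine receptors, the muscarinic genes CHRM2 and CHRM3 were bivalent. CHRM2, the receptor that slows the heart, had H3K27me3 of 110.3 in −Dox and 103 in +Dox (ratio 0.936, 0.684 to 1.28) and H3K4me3 of 43 in −Dox and 35 in +Dox. CHRM3, which drives smooth muscle and glands, had 67.3 in −Dox and 26.1 in +Dox (ratio 0.388, 0.223 to 0.655) for H3K27me3 and 54.4 in −Dox and 56.7 in +Dox for H3K4me3. The intervals of these H3K27me3 ratios did not overlap. CHRNA3, a subunit of autonomic ganglia, was the only bivalent nicotinic promoter, with H3K27me3 of 39.6 in −Dox and 16.4 in +Dox (ratio 0.415, 0.197 to 0.809) and H3K4me3 of 49.6 in −Dox and 43.2 in +Dox. Its cluster neighbour CHRNA5, with a start 55775 bp away, was H3K4me3-only, with 56.4 in −Dox and 61.5 in +Dox for H3K4me3 and 3.8 in −Dox and 9.69 in +Dox for H3K27me3. CHRNB4, the other gene of the cluster, was unmarked at a start 79076 bp from its canonical one.

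Of the serotonin receptors, HTR1B, an autoreceptor on nerve endings, had H3K27me3 of 69.6 in −Dox and 21.3 in +Dox (ratio 0.305, 0.165 to 0.53) and the highest H3K4me3 of the bivalent members, 99.2 in −Dox and 86.9 in +Dox. HTR1E had 32.7 in −Dox and 9.69 in +Dox (ratio 0.296, 0.118 to 0.686) for H3K27me3 and 24.8 in −Dox and 25.4 in +Dox for H3K4me3. HTR7, which couples to adenylyl cyclase, had 38.8 in −Dox and 18.6 in +Dox (ratio 0.481, 0.245 to 0.94) for H3K27me3 and 85.5 in −Dox and 73.8 in +Dox for H3K4me3. In these 3 genes H3K27me3 was below 0.5 of its −Dox value, but the ratio of HTR7 was 0.565 under scaling to the same total. HTR6 had 52.9 in −Dox and 31.3 in +Dox (ratio 0.592, 0.341 to 0.98) for H3K27me3 and 37.6 in −Dox and 29.5 in +Dox for H3K4me3. HTR2C had 24.7 in −Dox and 14.9 in +Dox (ratio 0.603, 0.274 to 1.34) for H3K27me3 and 34.2 in −Dox and 29.1 in +Dox for H3K4me3. All 5 bivalent serotonin genes had a ratio below 0.66 as deposited, while HTR6 and HTR2C had 0.697 and 0.71 under that scaling. The 5 HTR3 genes, which encode subunits of a serotonin-gated channel, were all unmarked.

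DRD1, the dopamine receptor of the direct striatal pathway, was bivalent with H3K27me3 of 33.8 in −Dox and 15.7 in +Dox (ratio 0.463, 0.224 to 0.947) and H3K4me3 of 31.3 in −Dox and 30.6 in +Dox. DRD2, with H3K27me3 of 19 in −Dox and 17.2 in +Dox, lay just below the threshold and was H3K4me3-only, with H3K4me3 of 24.2 in −Dox and 18.6 in +Dox.

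The adrenergic receptors, many of which act in heart, vessels and fat, had the weakest median change of the families with 3 or more bivalent genes (median log2 ratio −0.30, against −1.74 for GABA-A, −0.77 for ionotropic glutamate, −0.72 for metabotropic glutamate and −1.06 for serotonin receptors). The GABA-A median counts the shared GABRB2 and GABRA6 region 2 times. The genes of the families overlapped, with log2 ratios from −1.06 to 0.15 for adrenergic and from −3.43 to −0.02 for GABA-A receptors. The adrenergic median is the value of ADRA2A, and the order of the families was not tested. ADRB1, the main receptor of the heart, had H3K27me3 of 62.8 in −Dox and 69.7 in +Dox (ratio 1.11, 0.75 to 1.68) and H3K4me3 of 36.2 in −Dox and 25.4 in +Dox. ADRA1A, a receptor of vessels measured at a start 1873 bp from the canonical one, had 65.8 in −Dox and 61.5 in +Dox (ratio 0.935, 0.612 to 1.39) and H3K4me3 of 41 in −Dox and 41.4 in +Dox. ADRB3, the receptor of fat tissue, had 55.1 in −Dox and 35 in +Dox (ratio 0.636, 0.382 to 1.05) for H3K27me3 and 25.4 in −Dox and 26.8 in +Dox for H3K4me3. The intervals of these 3 ratios of H3K27me3 included 1. ADRA1D had lower values for both marks, with 31.2 in −Dox and 14.9 in +Dox for H3K27me3 (ratio 0.478, 0.215 to 0.972) and 35.9 in −Dox and 18.6 in +Dox for H3K4me3 (ratio 0.519, 0.264 to 0.961). With the libraries scaled to the same total its H3K27me3 ratio was 0.563 with an interval that included 1, while the H3K4me3 interval stayed below 1. ADRA2A, an inhibitory autoreceptor, was just above the threshold with H3K27me3 of 20.2 in −Dox and 16.4 in +Dox (ratio 0.814, 0.352 to 1.77) and H3K4me3 of 25.6 in −Dox and 24.2 in +Dox.

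H3K4me3 changed little at the bivalent promoters as a group. Its counting interval lay below 1 at 3 of 33, namely GRID1, GRIK3 and ADRA1D, against 10.1% of all bivalent promoters, and above 1 at none, against 1.52%. The ratio was below 1 at 21 of 33, against 67.6%. H3K4me3 remained above 20 at 31 of the 33 (93.9%). Of all bivalent promoters 51.0% stayed bivalent and 39.1% became H3K4me3-only, the classes above 20 for this mark. At the 16 promoters with an H3K27me3 ratio below 0.5 the median log2 H3K4me3 ratio was 0.00 (−0.21 to 0.21) and 8 were higher in +Dox. At the other 17 it was −0.30 (−0.51 to −0.02), and 4 were higher. Over all bivalent promoters the corresponding medians were −0.05 and −0.27, and 344 of 779 and 274 of 1128 were higher, so the order was the same at large. Across the 33 promoters the log2 ratios of the 2 marks had a Spearman correlation of −0.50 and a Pearson correlation of −0.52, against −0.36 for both over the 1907 bivalent promoters. This is a description over promoters that share their 4 libraries, and no p is given.

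**Figure D4:**
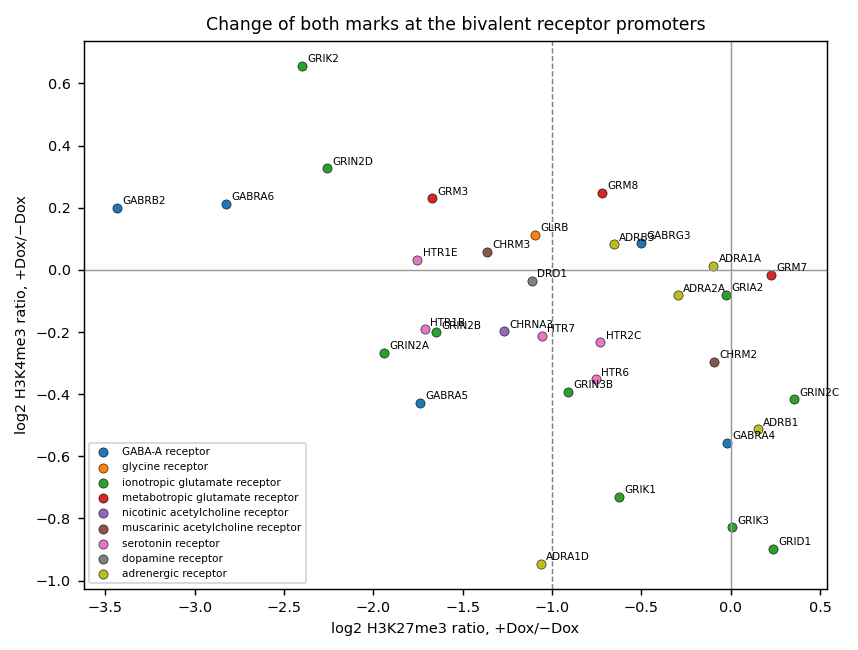
Log2 ratio of H3K27me3 (horizontal) against log2 ratio of H3K4me3 (vertical), +Dox over −Dox, for the 33 bivalent receptor promoters coloured by family. GABRB2 lies farthest left with H3K4me3 slightly above 0, and GRID1 and GRIK3 lie at the lower right, with H3K27me3 near or above 0 and H3K4me3 below it.

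Receptor genes without H3K27me3 were read at low depth. Of the 67 members not above 20 for H3K27me3 in −Dox none exceeded 20 in +Dox, against 0.433% of such promoters at large. Their median log2 H3K27me3 ratio was −0.21 (−0.44 to 0.09, n = 66), against −0.03 over all such promoters, and 1 member with no −Dox signal was left out. The intervals of HTR5A and of the antisense HTR5A-AS1 lay below 1, with H3K27me3 of 13.3 in −Dox and 1.12 in +Dox and 13.7 in −Dox and 1.49 in +Dox, and their starts are 1233 bp apart, so they share reads. CHRNA1 had an interval above 1, with 1.52 in −Dox and 9.69 in +Dox, from about 1.20 reads in −Dox. For such promoters at large the share of intervals that excluded 1 was not determined. Whether these few intervals exceed what counting error alone would give among 67 members was not tested.

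The 19 H3K4me3-only promoters had a median H3K4me3 of 31.6 in −Dox and 28.7 in +Dox. Among the highest were the AMPA subunit GRIA4 (74.1 to 82.8), CHRNA5, the kainate subunit GRIK5 (52.7 to 55.9) and CHRNA7 (47.6 to 52.9), a homomeric nicotinic receptor. The intervals of their H3K4me3 ratios, like those of all 19, included 1. The class also included GABRB1, GABRQ, GRM2, GRM4, CHRNB1, CHRND, CHRNE, HTR1A, DRD2, ADRA2B and ADRA2C. Of the 19, 14 stayed above 20 and 5 did not, among them GRM2, GRM4, DRD2 and CHRNE. CHRNB1, CHRND and CHRNE encode subunits of the muscle receptor, so this class was not limited to neuronal genes. The 48 unmarked members had H3K4me3 between 0.855 and 19.7 in −Dox, and 5 of them (GRIK4, GABRA3, DRD4, HTR4 and ADRA1B) were above 20 in +Dox. Among the 57 members above 20 for H3K4me3 in either condition 3 had an interval below 1, against 4.24% of such promoters, and GRIK4 alone had one above 1, against 1.96%.

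The unmarked genes included GABRA2, GABRA3, GABRD, GABRG1, GABRP, GABRR1 and GABRR2 of the GABA-A family, GLRA1 to GLRA4, GRIA1, GRIA3, GRIK4, GRM6, CHRM1, CHRM4, CHRM5, DRD3, DRD4, DRD5 and ADRA1B. To these come the nicotinic genes CHRNA1, CHRNA2, CHRNA4, CHRNA6, CHRNA9, CHRNA10, CHRNB2, CHRNB3, CHRNB4 and CHRNG, the serotonin genes HTR1D, HTR1F, HTR2A, HTR2B, HTR3A to HTR3E, HTR4 and HTR5A, and the 3 rows that are not receptors. Whether the choice of start placed genes in this class was not tested. Among the 91 members with a canonical start in the annotation 16 (17.6%) were measured over 1 kb away from it, against 13.6% of all promoters, and 5 of the 16 were bivalent.

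Across the 92 members with sequence, CpG content and −Dox H3K4me3 had a Spearman correlation of 0.55, against 0.67 over all promoters, given as a description. Within 500 bp of the start the median ratio of observed to expected CpG was 0.727 at 32 bivalent members, 0.543 at 16 H3K4me3-only members and 0.323 at 42 unmarked members, against 0.793, 0.784 and 0.262 over all promoters of each class. The H3K4me3-only receptor genes thus had a lower median than that class as a whole. A ratio of at least 0.6 was found in 46 of 92 members (50%, background 62.3%), and in 26 of the 32 bivalent ones. The median CpG ratio was 0.718 (n = 15) at bivalent members whose H3K27me3 was below 0.5 of its −Dox value and 0.757 (n = 17) at the others, with ranges of 0.382 to 0.924 and 0.255 to 0.943 that overlapped like those of the printed sequences.

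**Figure D5:**
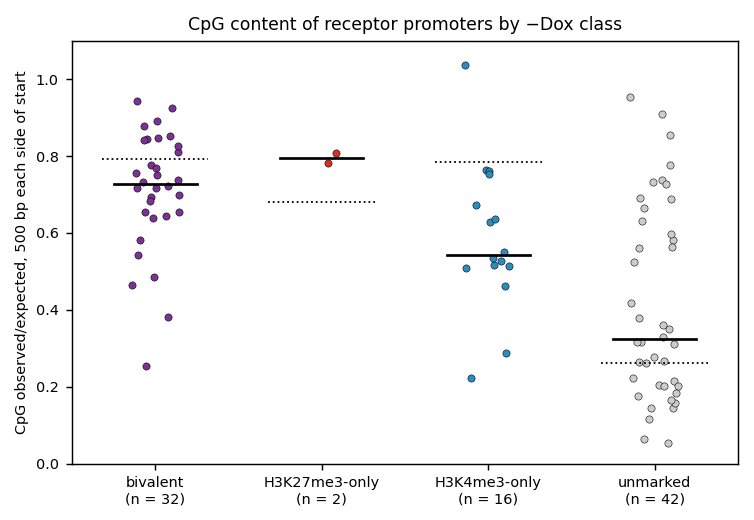
Ratio of observed to expected CpG within 500 bp of the start (vertical) for members with sequence, by −Dox class (horizontal), 1 point per promoter with the median of the members as a solid bar and that of all promoters of the class as a dotted bar. Bivalent members lie mostly above 0.6 (26 of 32), and the H3K4me3-only members have a median of 0.543 against 0.784 for that class as a whole.

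REST is a repressor that binds the RE1 element and keeps many neuronal genes off outside the nervous system. The letters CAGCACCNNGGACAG, which hold both conserved parts of RE1, were searched on both strands of the 6 kb windows. They were found in 6 of 92 member rows (6.52%), against 0.630% of all windows. Among the receptor genes alone they were found in 5 of 89 (5.62%). The channel genes had them in 5 of 123 (4.07%), the genes of transmitter handling described below in 3 of 66 (4.55%) and the neuron markers in 2 of 8 (25%). A share above that of all windows was thus not particular to the receptor genes. The matches reported here are printed with 3 bases on each side and the matched letters, including the 2 free ones, in capitals, for CHRNB2 (chr1:154540432-154540446), GRIA2 (chr4:158141544-158141558), HTR1A (chr5:63259098-63259112) and the 3 of HTR5A (chr7:154861792-154861806, chr7:154861842-154861856 and chr7:154861907-154861921), which HTR5A-AS1 shares. Positions are those of the capitals on GRCh37.
CHRNB2: cttCAGCACCACGGACAGcgc
GRIA2: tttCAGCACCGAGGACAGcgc
HTR1A: gttCAGCACCTGGGACAGttc
HTR5A, farthest from the start: aggCAGCACCGTGGACAGcgc
HTR5A, between: tggCAGCACCGCGGACAGcac
HTR5A, nearest to the start: cagCAGCACCGCGGACAGccc
GRIA2 and HTR1A hold their match on the strand opposite to the gene. Among these genes GRIA2 was bivalent, HTR1A was H3K4me3-only, and CHRNB2 and HTR5A were unmarked. A match describes letters in a window and not binding of the factor.

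The list of 72 genes of transmitter handling holds genes that make, carry or clear the transmitters, genes that anchor or modulate receptors, and the GABA-B receptor. Of these 72 genes 23 (31.9%, 22.3 to 43.4%) were bivalent and 3 H3K27me3-only. Another 23 were H3K4me3-only, a larger share than the 18.3% of the receptor rows, and 23 were unmarked, a smaller share than their 46.2%. At the bivalent ones H3K27me3 was below 0.5 at 10 (background 40.8%), with a median log2 ratio of −0.62 (−1.22 to 0.00). For GABA and glycine, GAD1 and GAD2, which make GABA, went from 144 to 71.6 (ratio 0.497, 0.353 to 0.686) and from 70.7 to 22.4 (ratio 0.316, 0.174 to 0.544). The vesicle carrier SLC32A1 had 199.7 in −Dox and 167 in +Dox, the uptake carrier SLC6A11 27.4 in −Dox and 18.3 in +Dox, and the GABA-B subunit GABBR2 57 in −Dox and 80.5 in +Dox. The enzymes thus had lower H3K27me3, and the intervals of the other 3 included 1.

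In the glutamate system the uptake carriers SLC1A2 (120.2 to 58.9, ratio 0.49, 0.338 to 0.703) and SLC1A6 (43.7 to 18.3, ratio 0.418, 0.219 to 0.816) and the kainate receptor partners NETO1 (29.3 to 8.58, ratio 0.293, 0.108 to 0.718) and NETO2 (32.7 to 14.5, ratio 0.445, 0.208 to 0.929) had lower values. So had CACNG2 (20.9 to 4.1, ratio 0.196, 0.0343 to 0.642) and CACNG3 (30.4 to 10.1, ratio 0.331, 0.127 to 0.752), auxiliary subunits of AMPA receptors. The intervals of CACNG4 (21.3 to 19.8), the scaffold HOMER3 (21.7 to 9.32), the delta receptor ligand CBLN1 (90.5 to 90.2) and the vesicle carrier SLC17A7 (50.6 to 51.5) included 1.

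Among cholinergic genes LYPD1, a modulator of nicotinic receptors, had H3K27me3 of 90.1 in −Dox and 26.1 in +Dox (ratio 0.29, 0.169 to 0.477) and RIC3, a nicotinic chaperone, 24 in −Dox and 6.34 in +Dox (ratio 0.265, 0.0753 to 0.714). The synthetic enzyme CHAT was 73.8 in −Dox and 78.7 in +Dox, the vesicle carrier SLC18A3 116 in −Dox and 127 in +Dox and the esterase ACHE 49.8 in −Dox and 32.4 in +Dox, all with intervals that included 1. Among monoamine genes the cofactor enzyme GCH1 had 21.7 in −Dox and 6.34 in +Dox (ratio 0.292, 0.0832 to 0.814) and the serotonin transporter SLC6A4 66.2 in −Dox and 41 in +Dox (ratio 0.62, 0.39 to 0.981). The transporters SLC18A2 (30.05 to 20.1), SLC6A2 (45.6 to 33.6) and SLC6A3 (50.6 to 70.1) had intervals that included 1. Some listed genes not above 20 in −Dox had intervals that excluded 1, in either direction. LYNX1, a modulator of nicotinic receptors, had H3K27me3 of 6.85 in −Dox and 26.1 in +Dox (ratio 3.81, 1.51 to 14). PICK1, an AMPA receptor anchor, was at 0 in −Dox and 10.4 in +Dox with a lower limit of the ratio of 1.67. The glutamate gene SLC1A1 had 14.8 in −Dox and 3.73 in +Dox (ratio 0.251, 0.0444 to 0.908). The monoamine gene MAOB had 9.51 in −Dox and 0 in +Dox, with an upper limit of the ratio of 0.68. The share of such intervals over all promoters not above 20 was not determined. Scaling to the same total multiplies the H3K27me3 ratios by 1.18. The intervals of NETO2, SLC6A4 and SLC1A1 then included 1, and those of GABBR2 and SLC6A3 lay above it. As stated above, this scaling takes the totals as equal, so it does not show a gain of the mark. The listed genes thus included values lower, alike and higher in +Dox. Neither mark is a measure of transcription, and expression was not analysed here.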

How the data were processed

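The 4 libraries, 1 per antibody and condition, were sequenced by the authors as single-end reads on a MiSeq and mapped to hg19 with Bowtie2, mitochondrial reads being left out. CASAVA 1.4 is named in the submitters' processing notes. The deposited values are signal, the ngs.plot coverage summed over 3 kb on each side of the start of 1 transcript per Ensembl gene and scaled by the authors to library reads. The methods also name a scaling to the density downstream of genes, and the sources used here do not say if these values had it. Other versions are not given in the sources used here. No input library was used here, and read-scaled values cannot show a loss that is equal over the genome.

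Ratios of +Dox to −Dox were computed over all 20242 promoters without a pseudocount and the members were then read off. All values (100% in each file) were multiples of a fixed step, and about 3.35 steps per read gave approximate reads, used for error intervals only. These intervals were tested on simulated data with counting error alone, at better covered promoters only. The simulation drew reads by the counting model that the intervals assume. It therefore does not bear on differences between libraries, on the estimate of reads or on promoters with few reads. The class threshold of 20 follows the study's methods, and ratios of H3K27me3 were counted below 0.5 and below 0.66, the limits that the study used. Intervals are 95% Wilson intervals for shares and come from order statistics for medians. Each mark was compared only between its own 2 libraries.

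The members, the gene lists and the rule for named genes were chosen with earlier results of these data known. Every member above 20 for H3K27me3 was named with its values, as were the 5 H3K4me3-only members highest in H3K4me3, members above 20 whose H3K4me3 interval excluded 1, and listed genes of transmitter handling above 20 for H3K27me3 in −Dox. HTR5A, HTR5A-AS1, CHRNA1, DRD2, GABRB1, LYNX1, PICK1, SLC1A1 and MAOB were named with values after these were seen. Some genes that the rule covers are not reported here.

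Deposited transcripts were matched to GENCODE on GRCh37 (18244 of 20242, and 92 of the 104 members), and sequences were read from that genome. RefSeq promoters served only to check starts. Positions are 1-based. Python 3.11.15, pandas 2.3.3, numpy 2.4.6, scipy 1.17.1, pysam 0.24.0 and matplotlib 3.10.9 were used.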

Additional observations from a re-analysis of the deposited data

How the results depend on the processing

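No paired analysis was possible because the groups hold 1 library each, which also means that leaving out a library removes a group. The class threshold and the condition that set the class moved the counts most. At a class threshold of 10 there were 51 bivalent members, of which 38 were above the threshold for H3K27me3 in +Dox, the median log2 H3K27me3 ratio of members without H3K27me3 was 0.10, and the bivalent shares of metabotropic glutamate, dopamine and adrenergic receptors were 75.0%, 80.0% and 100%. At a threshold of 40 there were 14 bivalent members, 7 of them with a ratio below 0.5 and 6 still above the threshold in +Dox, and 23 members were above it for H3K4me3. The bivalent shares were then 0% for glycine, nicotinic and dopamine receptors, 27.8% for ionotropic glutamate, 5.88% for serotonin and 11.1% for adrenergic receptors. With classes from the +Dox values 17 members were bivalent, a ratio below 0.5 was found at 3 of them (17.6%), and their median log2 ratio was −0.10. The shares were then 11.1% for GABA-A, 33.3% for ionotropic glutamate and 11.8% for serotonin receptors and 0% for glycine, nicotinic and dopamine receptors. That these classes leave out promoters low in +Dox is part of their construction. With classes from the mean of both conditions the median was −0.99 and 50% were below 0.5. Scaling to the same total gave a median of −0.68, scaling on low promoters −0.88 and a pseudocount of 5 −0.77. Members near their canonical start gave −0.76, and 1 row per overlapping window −0.83.

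Of 242 values of summaries under these alternatives 216 stayed within their spread or, for counts, within 1.5 times the reported one, and none changed a called direction. All 258 values of single genes stayed within their counting interval, but only the scaling and the pseudocount were varied for them. The scaling factors (1.18 and 1.02 for H3K27me3, 1.03 and 0.941 for H3K4me3) were small beside these intervals, so this outcome says little. Scaling to the same total did change the number of H3K27me3 intervals below 1 at bivalent members, from 18 to 12. H3K27me3 at a typical promoter rested on about 4.78 reads, which limits what can be read at members below 20.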

Other observations

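Marker genes of other lineages, which are not receptor genes, carried both marks in some cases. Among neuron markers the RNA-binding protein gene ELAVL4 had H3K27me3 of 52.5 in −Dox and 13.4 in +Dox (ratio 0.256, counting interval 0.122 to 0.521) at a start 60906 bp away from its canonical one, and SNAP25, a protein of vesicle fusion, 25.5 and 6.71 (0.263, 0.0719 to 0.673). The intermediate filament gene INA had 33.8 and 48.1 (1.42, 0.845 to 2.41), and STMN2, a regulator of microtubules, 30.4 and 33.9 (1.12, 0.613 to 2.0). The mixture of lower and like values seen at receptor promoters was therefore also present at neuron markers. ELAVL3 was H3K27me3-only, with 58.2 and 37.3. Of 6 skeletal muscle markers ACTA1, the skeletal actin gene, was bivalent, with 72.3 and 41.4 (0.573, 0.358 to 0.886), and of 6 glia markers none was. The interval of ACTA1 included 1 under scaling to the same total. In each of these lists there is 1 library per group, and no test was made.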
